A study of Mus musculus with 4 samples.

Results

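The genes described here encode 8 transcription factors that define the hepatocyte, namely Hnf4a, Foxa1, Foxa2, Foxa3, Cebpa, Cebpb, Onecut1 and Prox1. They were chosen by name from the 21826 protein-coding genes of the mm10 annotation. A peak was counted at a gene when the deposited annotation named that gene as its nearest, or when it lay within 50 kb of a start of one of the gene's protein-coding transcripts. The peaks of the 4 samples that met this rule merged into 46 regions, out of 10755 in all.

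The data are ChIP-Seq peak lists for the glucocorticoid receptor (GR), the nuclear receptor for glucocorticoid hormones, and for E2A, the basic helix-loop-helix protein that comes from the Tcf3 gene and includes the splice form E47. Both ChIPs were done on whole livers of male C57BL/6 wild-type mice (E47+/+), with 2 biological replicates each. The labels say untreated, and give a chow diet and a collection time of ZT10, which is 10 h after lights on. The methods give an age of 10 to 16 weeks. Whole liver holds other cell types besides hepatocytes, so a peak cannot be assigned to a cell type.

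Liver identity is held by a small network of factors that bind each other's genes and the genes of hepatic metabolism. HNF4α is a nuclear receptor that binds DNA as a homodimer, and its gene has an upstream and a downstream promoter. The FOXA proteins are forkhead factors known to open chromatin for other regulators, C/EBPα and C/EBPβ are basic leucine zipper proteins of metabolic and acute phase genes, ONECUT1 is the homeodomain factor also called HNF6, and PROX1 is a prospero-type homeodomain factor needed for liver outgrowth. GR binds DNA once hormone has activated it, and E proteins such as E2A bind E-Boxes as dimers.

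The labels are not free of conflicts. The free-text descriptions of both E2A samples name a GR ChIP, and that of replicate 2 also names the E47 mutant. For both samples the title, the antibody and the genotype say E2A and wild type, so they were taken as that. GR replicate numbers follow the titles, which run opposite to those in the deposited lists. A supplementary description of the study calls the livers Dex-treated, where the labels say untreated. The lists held 4291 and 7334 GR peaks and 4028 and 1892 E2A peaks in replicates 1 and 2, with median widths from 349 to 408 bp and no counts or heights. All 8 hepatocyte marker genes examined (Alb, Ttr, Apoa1, Apob, Serpina1a, Tat, Cps1 and Fgb) had a GR region called in both replicates, against 20.0% of all protein-coding genes.

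The sequences below, from the GRCm38 (mm10) genome of RefSeq and on its plus strand, show DNA under the peaks at these genes. The first 4 lie in stretches called in all 4 samples, at Foxa1, Foxa2 and Cebpa, and hold a motif match. The Cebpb sequence is from a promoter peak with a match. The Onecut1 and Hnf4a sequences were chosen after their matches had been seen, for the gene's own motif and for the 1 full GRE among the 46 regions. Capitals mark matches, on either strand, to the E-Box CANNTG, C/EBP TTGCNNAA, FOX TGTTTNC, HNF6 ATCGAT or ATTGAT, and STAT5 TTCNNNGAA, and in the Hnf4a sequence to the full GRE alone, which is GNACA, 3 free bases and TGTNC. At most 300 bp of each stretch are shown, without exons.
Foxa1 distal region, chr12:57444508-57444672: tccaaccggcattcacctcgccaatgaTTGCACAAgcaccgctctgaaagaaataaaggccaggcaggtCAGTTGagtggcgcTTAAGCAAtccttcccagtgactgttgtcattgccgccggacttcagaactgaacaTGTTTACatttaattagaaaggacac
Foxa2 distal region, chr2:147944242-147944459: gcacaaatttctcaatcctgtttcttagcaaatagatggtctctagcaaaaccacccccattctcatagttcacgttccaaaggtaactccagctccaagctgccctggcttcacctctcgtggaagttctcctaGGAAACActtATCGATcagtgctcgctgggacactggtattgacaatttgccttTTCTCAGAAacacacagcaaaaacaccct
Cebpa near region, chr7:35123477-35123776: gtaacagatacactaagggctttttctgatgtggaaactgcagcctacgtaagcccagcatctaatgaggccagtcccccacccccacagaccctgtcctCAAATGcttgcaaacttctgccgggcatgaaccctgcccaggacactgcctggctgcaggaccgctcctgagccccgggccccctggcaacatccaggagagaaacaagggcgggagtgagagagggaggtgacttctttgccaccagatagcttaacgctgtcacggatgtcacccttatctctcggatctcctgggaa
Cebpa distal region, chr7:35168090-35168389: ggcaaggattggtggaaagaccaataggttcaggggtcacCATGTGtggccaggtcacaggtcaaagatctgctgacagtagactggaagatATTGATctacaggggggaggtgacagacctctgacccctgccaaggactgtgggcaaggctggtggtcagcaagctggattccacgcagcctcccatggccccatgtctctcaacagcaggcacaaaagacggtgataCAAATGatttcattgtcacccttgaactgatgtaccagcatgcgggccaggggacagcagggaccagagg
Cebpb upstream region, chr2:167687705-167687956: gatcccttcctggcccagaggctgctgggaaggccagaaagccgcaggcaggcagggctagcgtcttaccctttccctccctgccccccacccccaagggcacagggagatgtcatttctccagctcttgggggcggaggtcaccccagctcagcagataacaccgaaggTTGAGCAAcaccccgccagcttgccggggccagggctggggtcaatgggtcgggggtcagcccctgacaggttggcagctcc
Onecut1 intronic region, chr9:74866632-74866931: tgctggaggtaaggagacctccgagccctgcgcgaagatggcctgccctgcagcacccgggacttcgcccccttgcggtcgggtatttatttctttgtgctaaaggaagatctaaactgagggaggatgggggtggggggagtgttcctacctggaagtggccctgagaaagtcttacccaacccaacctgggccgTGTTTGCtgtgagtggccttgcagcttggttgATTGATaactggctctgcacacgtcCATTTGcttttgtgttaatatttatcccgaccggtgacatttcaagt
Hnf4a downstream region, chr2:163596105-163596254: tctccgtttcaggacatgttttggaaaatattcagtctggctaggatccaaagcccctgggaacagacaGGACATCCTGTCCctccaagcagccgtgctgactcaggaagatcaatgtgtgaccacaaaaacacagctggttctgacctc

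The Foxa1 sequence carried 2 C/EBP matches (TTGCACAA and TTAAGCAA), the E-Box CAGTTG and the FOX match TGTTTAC within 165 bp. Of the 165 bp windows at the centres of all 10755 regions, 10.2% held a C/EBP match, 49.8% an E-Box and 13.8% a FOX match. At Foxa2, a FOX match, the HNF6 match ATCGAT and the STAT5 match TTCTCAGAA lay within 218 bp, where 18%, 9.07% and 7.41% of all windows of that length held them. The distal Cebpa sequence held 2 E-Boxes (CATGTG and CAAATG) and the HNF6 match ATTGAT, and the near one held the E-Box CAAATG alone. At their length of 300 bp, 70.6% of all windows held an E-Box and 11.6% an HNF6 match. In the Cebpb sequence, which lies 959 bp before the start, the C/EBP match TTGAGCAA was present, and 14.7% of all windows of 252 bp held one. The Onecut1 sequence held the HNF6 match ATTGAT, the FOX match TGTTTGC and the E-Box CATTTG, also in 300 bp, where 23.2% of all windows held a FOX match. A match describes the letters only and does not show that a factor was there.

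Every one of the 8 genes had a GR peak in both replicates, and the peaks overlapped between the replicates at all 8. Among all protein-coding genes, 20.0% had a GR region called in both replicates by the same rule. An E2A region called in both replicates was found at 6 of the 8 genes, against 10.8% of all genes, and was missing at Foxa3 and Onecut1. GR and E2A regions shared at least 1 bp at 7 of the 8, all but Foxa3, against 20.8% of all genes. A stretch called in all 4 samples was found at 5 of the 8, namely Foxa1, Foxa2, Cebpa, Cebpb and Prox1, against 4.55% of all genes. When E2A replicate 2, whose description conflicts with its title, was left out, 6 of the 8 genes had a GR region shared with E2A and 6 had a stretch called in the remaining 3 samples. A stretch in 3 samples is a looser rule than one in 4, so the latter count cannot show whether that sample matters. With the 50 kb window alone, without the nearest-gene rule, 7 genes had a GR region and 5 an E2A region in both replicates. A shared region was then found at 6 genes and a stretch in all 4 samples at 4, Foxa1 being lost from each count. With a 10 kb window, 6 genes had a GR region in both replicates, 3 an E2A region in both and 3 a stretch in all 4 samples. With only peaks at least as wide as the median of their list, these counts were 5, 2 and 2. The shares of all genes were computed under the main rule only. These genes also had more regions than most: their median was 5.5 regions, and that of all protein-coding genes was 1.0.

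**Figure D1:**
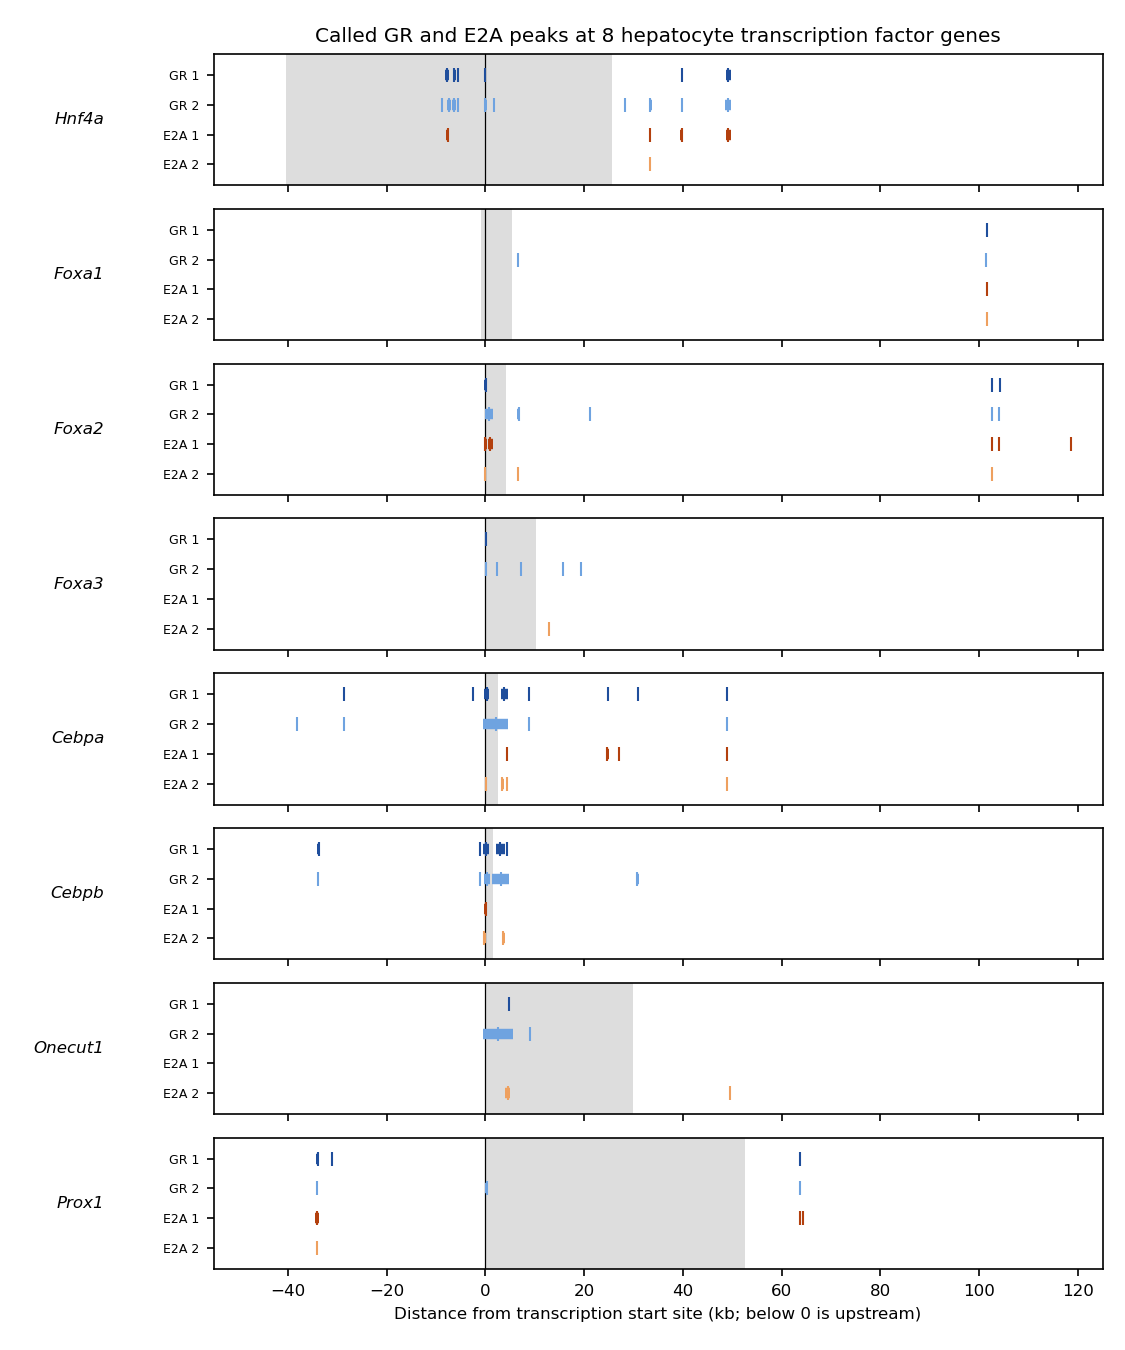
Called peaks at each gene by sample. The x axis is the distance in kb from the most upstream annotated start (for Hnf4a the downstream promoter), in the direction of transcription. Each row is 1 sample of 1 replicate. Thick bars show peak widths to scale, thin ticks mark peak centres, grey shows the gene body, and the black line is the start. The 4 samples line up just past 100 kb downstream of Foxa1 and Foxa2, at the Foxa2 start, in 2 places at Cebpa, at the Cebpb start and upstream of Prox1, and no E2A peak lies over the starts of Hnf4a, Foxa1, Foxa3, Onecut1 and Prox1.

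The number of peaks differed among the genes and between the replicates. In GR replicate 1, GR replicate 2, E2A replicate 1 and E2A replicate 2, in this order, 28, 37, 18 and 15 peaks were called at the 8 genes together. Both GR samples were thus above both E2A samples, with a mean of 32.5 against 16.5. An exact two-sided permutation test of the 2 against 2 samples gave p = 0.333, the smallest value that this design can give. With only peaks at least as wide as the median of their list, the difference was 7.5 peaks with p = 0.667 in the same exact permutation test, so the order no longer held. It was also lost once the length of the lists was taken into account. Per 1000 peaks of each list, the values were 6.53, 5.04, 4.47 and 7.93, so the 2 E2A samples lay below and above both GR samples (exact permutation test, p = 1.00).

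**Figure D2:**
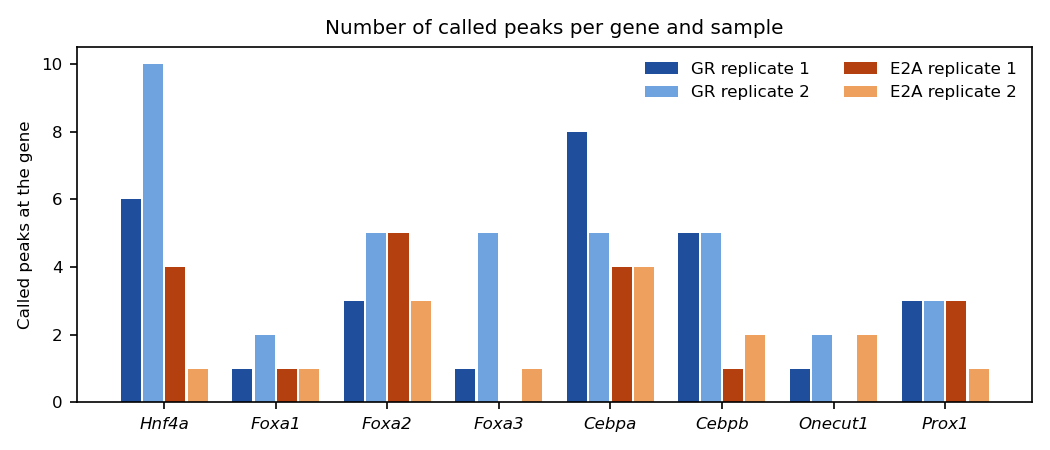
Number of called peaks at each gene in each of the 4 samples, without any scaling for the length of the lists. Hnf4a had the most in GR replicate 2 (10 peaks) and Cebpa the most in GR replicate 1 (8 peaks), and Foxa3 and Onecut1 had 0 peaks in E2A replicate 1.

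Hnf4a had the most regions of the 8 genes. It lies on the plus strand of chromosome 2 (163506808-163572910), and 10 regions were called there, a number reached by 0.564% of protein-coding genes. Peaks numbered 6 and 10 in the GR replicates and 4 and 1 in the E2A replicates, so GR was above E2A in each pair of samples. None of the 10 regions was called in all 4 samples, although 4 of them were called in 3 samples each.

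All peaks near the promoters of Hnf4a were at its downstream promoter. The start of the upstream promoter (163506808) had no peak of any sample close by, and the nearest, in GR replicate 2, was 31479 bp away. At the downstream start (163547187) the GR peak of replicate 1 spanned 163547055-163547346 and that of replicate 2 spanned 163546886-163547446, both over the first exon of the downstream transcripts. The nearest E2A peak to this start was 7303 bp upstream in replicate 1 and 33307 bp downstream in replicate 2. A cluster of 4 GR regions lay between 8552 and 5276 bp upstream of the downstream start, within the body of the gene, and the deposited annotation gave them to the antisense gene Hnf4aos. Both GR replicates called 3 of these 4, and E2A replicate 1 called 1 of them.

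Past the 3′ end of Hnf4a, 4 intergenic regions were called between 25184 and 45712 bp downstream of the nearest start. That start, at 163550083, is a further annotated one, past the downstream start at 163547187. The deposited annotation gave all 4 regions to Ttpal, the gene that follows. The region 30297 bp downstream (163580380-163580849) lay 33193 bp from the start at 163547187. It was the only one at Hnf4a with a peak in both E2A replicates, and GR was called there in replicate 2. The most distal (163595795-163597038) was wide in 3 samples, with 993 bp in GR replicate 1, 1244 bp in GR replicate 2 and 1065 bp in E2A replicate 1. Peaks at least this wide made up 3.24%, 4.28% and 2.01% of those 3 lists. This region held the single full GRE among the 46 regions, GGACATCCTGTCC at 163596174-163596186, and the peaks of all 3 samples covered it. Of all windows of 150 bp at region centres, 2.47% held a full GRE, but this match was found by searching whole regions. Whole regions with a full GRE made up 2.17% of the 46, and their share of all regions was not computed.

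The Foxa genes differed in where their peaks lay. Foxa1 on chromosome 12 (57540628-57546916, minus strand) had no peak over its start in any sample, and its 2 regions were at the 3′ side. The first was called in all 4 samples, with 293 and 309 bp in the GR replicates and 335 and 399 bp in the E2A replicates. The stretch that the 4 peaks shared, chr12:57444508-57444672, was 101449 bp downstream of the start, inside an intron of Mipol1, and the deposited annotation named Foxa1 as nearest. Within 50 kb of the Foxa1 start there was 1 region only, 6370 bp downstream, and it was called in GR replicate 2 alone.

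Foxa2 on chromosome 2 (148042877-148046969, minus strand) combined peaks at the start with distal ones. All 4 samples had a peak over a transcript start, of 461 and 1697 bp for GR and, over the most upstream start, of 635 and 337 bp for E2A. They shared 231 bp at chr2:148046853-148047083, which reaches into the first exon. A second E2A peak of replicate 1, 900 bp wide, covered the start that lies farthest downstream. In the intergenic DNA downstream, chr2:147944242-147944459 was called in all 4 samples 101489 bp from the nearest start. A neighbour 102864 bp downstream was called in both GR replicates and E2A replicate 1. GR numbered 3 and 5 peaks at Foxa2 and E2A numbered 5 and 3. Of its 6 regions, 5 were called for GR and 5 for E2A.

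At Foxa3 the peaks were almost all GR peaks. This gene lies on chromosome 7 (19013284-19023538, minus strand). Both GR replicates covered its start, with peaks of 288 bp (19023306-19023593) and 501 bp (19023133-19023633). GR replicate 2 had another 4 peaks up to 19173 bp downstream that replicate 1 did not have. The deposited annotation gave those at 15642 and 19173 bp to the neighbour Irf2bp1, the latter as a promoter peak. E2A had 0 peaks in replicate 1, where the nearest peak was 70368 bp upstream at Six5, and 1 in replicate 2, of 334 bp and 12805 bp downstream of the start. That E2A peak was given to Irf2bp1 as well. No GR region at Foxa3 met an E2A region.

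The C/EBP genes had broad GR peaks over and behind their starts. At Cebpa on chromosome 7 (35119293-35121928, plus strand), GR replicate 2 had a single peak of 5076 bp (35118897-35123972) over the whole gene, a width reached by 0.423% of that list. GR replicate 1 split the same stretch into a peak of 1171 bp over the start and one of 1466 bp that began 3084 bp downstream. E2A replicate 2 had 3 peaks in it, over the start, 3154 bp and 4102 bp downstream, and E2A replicate 1 had 1, at 4108 bp downstream. The DNA common to all 4 samples was therefore not at the start but behind the gene, at chr7:35123411-35123843.

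A second stretch common to all 4 samples, chr7:35168074-35168407, lay 48771 bp downstream of the Cebpa start, where the deposited annotation named Slc7a10 as nearest. Its peaks were 470 and 433 bp wide for GR and 379 and 347 bp wide for E2A. Cebpa had 8 and 5 GR peaks and 4 and 4 E2A peaks, in 9 regions, and 0.898% of protein-coding genes had as many regions or more. Between these stretches, the region 24454 bp downstream was called in GR replicate 1 and E2A replicate 1 only.

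Cebpb on chromosome 2 (167688915-167690418, plus strand) has a single exon, and all 4 samples had a peak over its start. The peaks were 1238 and 1255 bp wide for GR and 647 and 745 bp wide for E2A, so the GR peaks were the wider ones. They shared 436 bp at chr2:167688687-167689122. The part of it before the exon had 81.6% GC and held none of the motifs. A separate GR peak about 1 kb upstream was called in both replicates and in neither E2A sample. Behind the gene, GR peaks of 1819 bp in replicate 1 and 3509 bp in replicate 2 covered the promoter of the neighbour A530013C23Rik, and E2A replicate 2 had a peak of 516 bp that overlapped both. In all, GR had 5 and 5 peaks at Cebpb and E2A had 1 and 2.

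**Figure D3:**
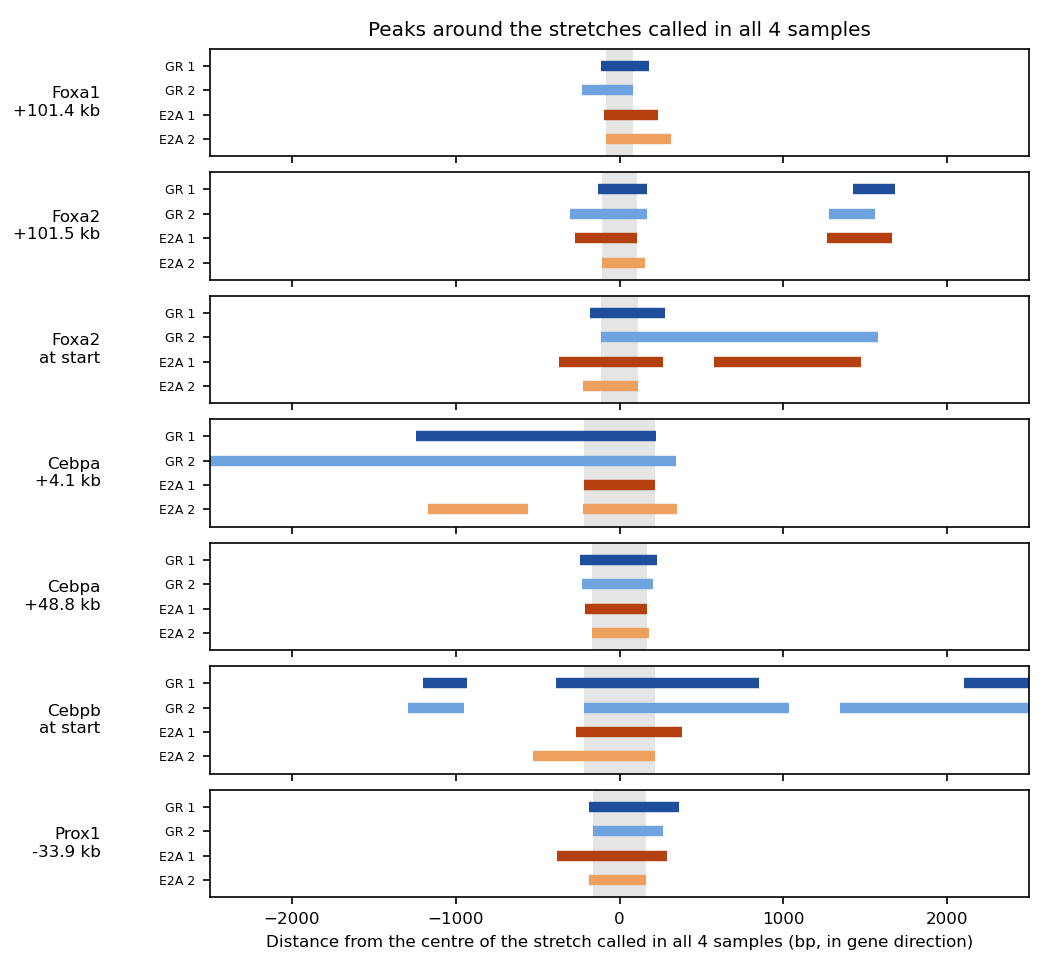
Peaks around the 7 stretches called in all 4 samples. The x axis is the distance in bp from the centre of the stretch (grey), in the direction of the gene named at the left, and each row is 1 sample. At the start of Cebpb the GR peaks reach farther downstream than the E2A peaks, but the E2A replicate 2 peak begins upstream of both GR peaks. Behind Cebpa the GR replicate 2 peak reaches upstream past the edge of the plot. The GR replicate 1 peak there covers about the same span as the E2A replicate 2 peaks. At Foxa1 and in the distal Cebpa region the peaks of all 4 samples are of similar width.

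Onecut1 had 3 regions and Prox1 had 5. Onecut1 lies on chromosome 9 (74861921-74891781, plus strand). GR replicate 2 had a peak of 6037 bp (74861513-74867549) that covered the start, a width reached by 0.314% of that list. GR replicate 1 had a peak of 349 bp inside that span, 4708 bp downstream of the start, and none over the start itself. E2A replicate 2 had a peak of 996 bp there, 4020 bp downstream, and the nearest peak of E2A replicate 1 was 76907 bp downstream. The 3 samples with a peak shared the intronic stretch chr9:74866629-74866936. Of the 2 E2A peaks of replicate 2, the other was 49438 bp downstream near Fam214a, in no other sample.

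Prox1 on chromosome 1 (190118035-190170714, minus strand) had 3 and 3 GR peaks and 3 and 1 E2A peaks. A stretch called in all 4 samples lay upstream of the start, in the antisense gene Prox1os. Its peaks were 549 and 425 bp wide for GR and 676 and 347 bp wide for E2A. Past the 3′ end, a region 62127 bp from the nearest start was called in both GR replicates and in E2A replicate 1. Over the start itself there was 1 peak, of 584 bp (190170171-190170754), in GR replicate 2 alone.

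Peaks over a transcript start were called at more of these genes in both GR samples than in either E2A sample. In GR replicate 1, 5 of the 8 genes (Hnf4a, Foxa2, Foxa3, Cebpa and Cebpb) had one, against 5.16% of all genes. In GR replicate 2 the same 5, Onecut1 and Prox1 had one, 7 of 8, against 17.2%. E2A replicate 1 had one at Foxa2 and Cebpb, 2 of 8, against 6.16%, and E2A replicate 2 had one at these and at Cebpa, 3 of 8, against 2.59%. By the promoter class of the deposited annotation, 7 of the 8 genes had a GR promoter peak in at least 1 replicate, against 18.3% of all genes, and 3 had an E2A promoter peak, against 7.89%. Without E2A replicate 2, 2 of the 8 had an E2A promoter peak. The means of 6 genes for GR and 2.50 for E2A gave p = 0.333 in the exact two-sided permutation test over the samples, the smallest it can give here.

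Called GR and E2A regions often met at these genes. Of 41 GR regions, 17 met an E2A region (41.5%, 95% Clopper-Pearson interval 26.3 to 57.9%), and over the whole lists 30.7% did. Of 25 E2A regions, 20 met a GR region (80.0%, 59.3 to 93.2%), against 58.1% over the whole lists. The interval of the first share includes the value of the whole list, and that of the second lies above it. Without E2A replicate 2, the shares were 34.1% and 83.3%, against 26.7% and 58.6% over the whole lists. Without E2A replicate 1, the share of GR regions fell to 26.8%, against 13% over the whole lists. When regions had to have their centres within 250 bp of each other, 48.0% of the E2A regions met a GR region, against 46.7% over the whole lists. Agreement between GR replicates was higher here too, with 22 of 41 GR regions called in both (53.7%, 37.4 to 69.3%) against 31.1% of all GR regions. For E2A it was 8 of 25 (32.0%, 14.9 to 53.5%) against 23.4%, within the interval. The regions at 1 gene are not independent of each other, the members were chosen with results known, and the intervals cover counting error only.

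Counted by pattern, 7 of the 46 regions (15.2%) were called in all 4 samples, against 4.44% of all 10755 regions, and 8 (17.4%) in both GR replicates and no E2A sample, against 13.6%. A further 5 (10.9%, against 6.05%) were called in both GR replicates and E2A replicate 1, and 2 (4.35%, against 1.38%) in both GR replicates and E2A replicate 2. The largest class, of 13 regions (28.3%, against 33.0%), was called in GR replicate 2 alone, the longest list. Only 1 region, the one 30297 bp downstream of the nearest Hnf4a start, was called in both E2A replicates without GR replicate 1. It was called in GR replicate 2 too, a pattern of 2.17% of the 46 and 2.13% of all regions. Regions of E2A alone numbered 5, with 3 (6.52%, against 12.5%) in replicate 1 alone and 2 (4.35%, against 3.19%) in replicate 2 alone. None was called in both E2A replicates without GR, against 2.94% of all regions. A count of 0 in 46 allows up to 7.71% by the Clopper-Pearson interval, so it does not set these genes apart.

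**Figure D4:**
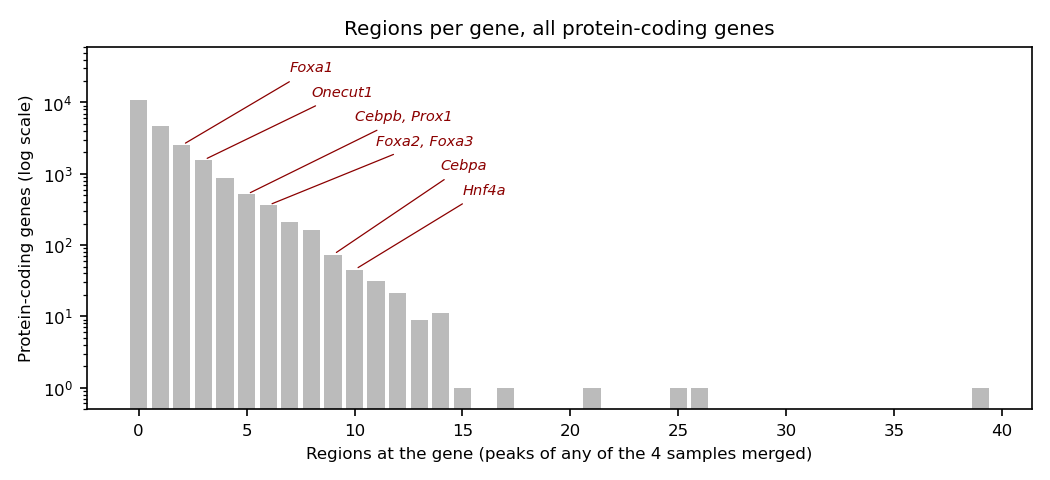
Distribution of the number of regions per gene over all 21826 protein-coding genes, with the y axis on a log scale. The lines point to the bars that hold the 8 genes. The 8 genes lie between 2 regions (Foxa1) and 10 regions (Hnf4a), and the median of all genes is 1.0.

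Other hepatocyte transcription factor genes had peaks of both ChIPs as well. Of a list of 40 such genes, 29 (72.5%) had a GR region called in both replicates, 21 (52.5%) an E2A region called in both, and 28 (70.0%) a shared region. A GR peak lay over a transcript start at 40.0% of the 40 in replicate 1 and 62.5% in replicate 2. For E2A these shares were 25.0% and 15.0%, so here too both GR samples were above both E2A samples. A GR promoter peak was found at 67.5% and an E2A promoter peak at 42.5%. A stretch called in all 4 samples was found at 11 (27.5%). The median was 5.0 regions per gene, with a range of 0 to 13, close to the 5.5 of the 8 genes. Nr0b2, the gene of the corepressor SHP, had such stretches 4050 and 9861 bp downstream of its nearest start, and Rxra, which encodes a partner of many nuclear receptors, had them 77025 and 51188 bp upstream. A stretch of this kind lay over a transcript start at Tef, a circadian PAR-bZIP factor, and at Srebf1, which encodes a regulator of lipid synthesis. That of Tcf7l2 lay 26 bp from a start, and single stretches farther away were found at Hhex, Creb3l3, Klf15, Foxo3, Zbtb20 and Mlxipl. Gata6, Tbx3 and Lhx2 had no region.

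Motif matches in the central 200 bp of the 46 regions were near the level of all 10755 regions for most motifs. FOX matches were in 13 of the 46 windows (28.3%, 95% Clopper-Pearson interval 16 to 43.5%), against 16.7% of all. E-Boxes were in 31 (67.4%, 52.0 to 80.5%) against 56.5%, and their core CACGTG was in 0 against 5.38%, where 3 counts of 46, taken as what a count of 0 allows, are 6.52% and the Clopper-Pearson upper limit is 7.71%. The cores CAGCTG and CAGGTG were in 15.2% and 17.4% of the 46 windows, against 11.8% and 13.2%. C/EBP matches were in 8 (17.4%, 7.82 to 31.4%) against 12.1%. HNF4 matches (CAAAGTCCA or CAAAGTTCA) were in 4.35% against 2.04%, HNF6 matches in 8.70% against 8.42%, and STAT5 matches in 8.70% against 6.90%. GRE monomers (AGAACA) were in 7 (15.2%, 6.34 to 28.9%) against 15.8%, and the full GRE was in 0 against 2.88%, the Hnf4a match being outside the central 200 bp. Each of these values of all regions lay within the interval of the 46.

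**Figure D5:**
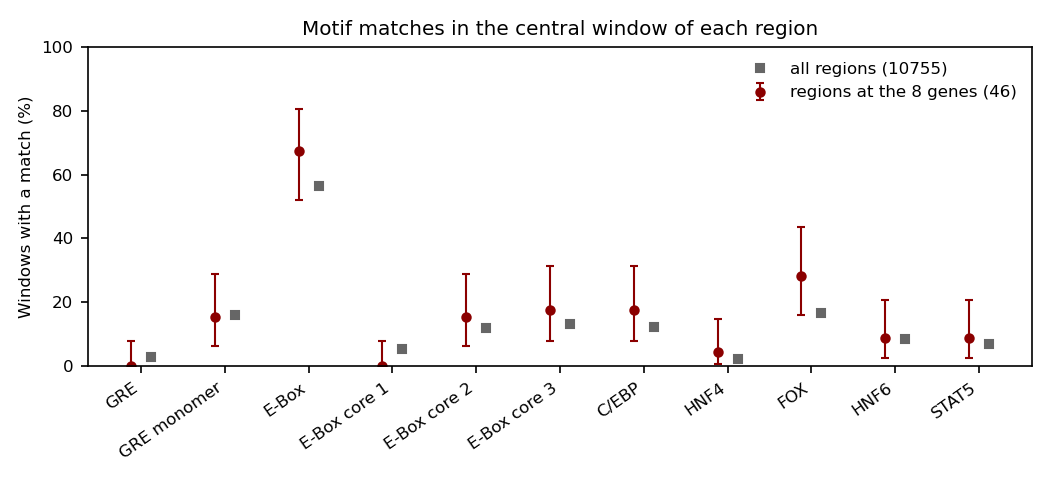
Share of windows of 200 bp with a match to each motif, in percent. Circles with bars are the 46 regions at the 8 genes with 95% Clopper-Pearson intervals, squares are all 10755 regions, and E-Box core 1 is CACGTG, core 2 is CAGCTG and core 3 is CAGGTG. GRE monomer is AGAACA. Each square lies within the interval of its circle, and the circle of FOX is at 28.3% with the square at 16.7%.

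The motifs of 7 of the factors were also looked up, after the other values had been seen, in the whole regions at their own genes. No motif was searched for PROX1. Over all 10755 whole regions, 33.5% held a FOX match, 24.5% a C/EBP match, 17.1% an HNF6 match and 4.12% an HNF4 match. FOX matches were in 5 of the 6 regions at Foxa2 (8 matches), in 1 of 6 at Foxa3 and in 1 of 2 at Foxa1. C/EBP matches were in 3 of 5 regions at Cebpb and in 1 of 9 at Cebpa. The HNF6 motif occurred 5 times in the wide Onecut1 region and in none of its other 2. No HNF4 match was found in the 10 regions at Hnf4a. Wide regions hold more matches of any motif by their length, so these counts were not compared between genes.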

How the data were processed

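GR and E2A ChIP-Seq was performed by the authors on wild-type mouse liver (2 biological replicates each). Reads were aligned by the authors to mm10 (BWA-MEM) and freed of duplicates (Picard), and pairs with a single mapping were retained. Libraries were thinned to equal depth within each ChIP (18 mio pairs for GR, 22 mio for E2A) before MACS2 peak calling per sample. The labels name BWA 0.7.13, Picard 1.119 and MACS2 2.1.0. The methods of the study, which describe the thinning, name other versions of Picard and MACS2. Whether the deposited lists come from the thinned libraries is therefore not certain. The control, threshold and annotation tool are not given in the sources used here. The deposited values are start, end, width and distance to a start, in bp, without counts, so depth behind a peak is unknown.

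Here, peaks sharing at least 1 bp were merged within a ChIP and over all samples. Starts were those of GENCODE vM21 protein-coding transcripts, and sequences were read from GRCm38.p6. Python 3.11.15, scipy 1.17.1 and pysam 0.24.0 were used. All 8 genes were named, with coordinates for regions called in all samples, other than at Prox1, and for the promoter peaks described. The members, lists and tests were chosen with earlier results of these data known. Code was tested on simulated data. Alternatives changed windows, overlap, width, promoter definition and replicates. The sequence of 1 region at Prox1 and 1 list of marker genes are not reported here.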

Additional observations from a re-analysis of the deposited data

How the results depend on the processing

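Of the values recomputed under the alternatives, 5 changed sign and 19 moved, which for a count means by over 1.5 times and for a share out of its 95% interval. The other 171 did neither, but this is no measure of robustness, as some of them could not have changed. Counts of peaks over a start and of promoter peaks do not depend on the window. Pairing by replicate number repeats the main difference, and leaving out a replicate loosens the rule for calls in all replicates. Some of the 171 differed widely: the difference of 16 peaks became 7.5 with only peaks at least as wide as the median of their list (exact permutation p = 0.667), 9 by nearest gene and 25 with 100 kb. The sign changes were in the GR minus E2A difference in peaks per 1000, which was -0.413 and became 0.377 with a 10 kb window, 1.38 with 100 kb, 0.121 with the 50 kb window alone, 0.327 without GR replicate 2 and 1.32 without E2A replicate 2 (range over replicates left out, -2.14 to 1.32). Pairing the samples by number (replicate block) left the differences at 16 peaks and -0.413, and with 2 pairs no test was made. The genes with a peak over a start differed by 3 and 4 within the replicate numbers. The samples share only these numbers, and for shares and counts of regions called in both replicates no paired analysis was possible because both replicates enter 1 value.

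For the 10 kb window and the wide peaks, no shares over all genes or regions were computed. With a 10 kb window, 3 genes had an E2A region in both replicates, 100% of only 10 E2A regions met a GR region, and 3 genes had a stretch in all 4 samples. With only peaks at least as wide as the median of their list, 5 genes had a GR region and 2 an E2A region in both replicates, 2 had a stretch in all 4 samples, and 3 a GR replicate 1 peak over a start. With centres within 250 bp, 48.0% of E2A regions met a GR region. With 400 bp windows, 32.6% held a GRE monomer, 82.6% an E-Box and 32.6% CAGGTG. In whole regions, these shares were 41.3%, 84.8% and 39.1%, with 39.1% for CAGCTG, 37.0% for C/EBP, 52.2% for FOX and 26.1% for HNF6. Longer windows hold more letters. Among all whole regions of the lists, the shares were lower, with 24.5% for C/EBP, 33.5% for FOX and 17.1% for HNF6. For HNF4 they were close, with 4.35% at these genes and 4.12% among all. Whether region length accounts for these differences was not tested, and no intervals were computed for whole regions. In regions called in both replicates, the HNF4 share was 0.00%.

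Without 1 replicate at a time, the peak difference ranged from 11.5 to 20.5. Genes with a GR region stayed at 8, those with an E2A region ranged from 6 to 8, with a shared region from 6 to 7, with a GR promoter peak from 5 to 7, with an E2A promoter peak from 2 to 3, and with a stretch in all remaining samples from 5 to 6. Once a replicate was left out, a call in the remaining replicate was enough for a GR or E2A region. A stretch had to lie in 3 samples only. These rules are looser than the main ones, so the counts of GR regions, E2A regions and stretches are no test of stability. The share of GR regions meeting E2A ranged from 26.8% to 57.1%, and that of E2A regions meeting GR from 68.0% to 86.7%.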

Other observations

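Several regions at the 8 genes lay in or beside other genes. The annotation gave 4 GR regions inside Hnf4a to the antisense gene Hnf4aos, and the stretch of all 4 samples upstream of Prox1 lay in Prox1os. At Foxa1 the stretch of all 4 samples lay in the last annotated intron of Mipol1 and also within the antisense gene Gm16246, and at Onecut1 the shared intronic stretch lay in Gm20649, a long non-coding gene. These lists do not tell which gene a region acts on.

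The distal stretches of all 4 samples at Foxa1 and Foxa2 lay at almost the same distance, 101449 and 101489 bp downstream of the nearest start. Their chromosomes and sequences differ, and the distances were compared after their values were seen.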
